A study of Salmo salar with 8 samples.

Results

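The phagocytosis genes are 43 of the 50 genes that the study listed for the Gene Ontology term phagocytosis among the transcripts that differed between its 2 culture times. Its term analysis took in only genes that differed by more than 2-fold in its own values. The 7 listed genes not covered here were an immunoglobulin heavy chain, an integrin, a heat shock protein shared with the term vacuolar lumen, 3 cytokines and a transglutaminase. By its gene symbol, 42 of the 43 had at least 1 probe in the study's probe list, 95 probes in all, of 43689 probes on the array and 1449 different gene names in that list. The genes were thus chosen by the difference in array signal between the days in the same 8 samples, so the values below describe these genes, and no sample was left to test them independently.

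Adherent head kidney leukocytes (HKLs) are white blood cells of the head kidney, the blood-forming organ of teleost fish, that attach to plastic after separation on a density gradient. Cells of 4 Atlantic salmon (Fish 1 to Fish 4) were lysed 120 h (Day 5, n = 4) and 24 h (Day 1, n = 4) after seeding, so that each fish gave 1 culture per day. A further animal, Fish 5, was taken out by the study after hybridization and is not among these samples. The study names a labelling error and also states that this fish did not cluster by day. Cells of both days were grown without any other treatment in Leibovitz medium with fetal bovine serum and antibiotic and were rinsed free of unattached cells before lysis, so the Day 5 cultures had also gone through the later changes of medium. Each sample, labelled with Cy5, shared a 44K salmonid array with the common reference, in which aliquots of all samples were pooled and labelled with Cy3. The cultures were primary and mixed in cell type, and in such bulk samples fewer cells of a type and less RNA per cell cannot be told apart.

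Phagocytosis is the uptake of large particles, such as microbes and dying cells, by an actin-driven cup of membrane. In mammals, receptors bind the particle directly or through antibodies, complement and bridging proteins, Src family kinases and Syk pass the signal on, and small GTPases such as Rac drive branching of actin filaments through the WAVE complex. The closed phagosome then fuses with endosomes and lysosomes, which digest what it holds. Macrophages and neutrophils are the main phagocytes of fish and mammals, and B cells of teleosts are also known to take up particles.

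A level is given here as the log2 ratio of a sample to the common reference, and a change as the Day 5 minus Day 1 difference within fish with its standard error (SE) from limma. Median Cy5 intensities of the arrays lay between 337 and 594 at Day 5 and between 176 and 531 at Day 1, and the Cy3 median was 90.8 on the Day 5 array of Fish 1 against 206 to 275 on the 7 others. The arrays lay on 3 slides, and both days of Fish 1 shared a slide, as did both days of Fish 3. The slide with the Day 5 arrays of Fish 2 and Fish 4 held no Day 1 array. Within these fish, day and slide cannot be told apart. Cell type markers were found only by name in the study's list of differing probes, so a marker that did not differ could not appear. Of 13 macrophage genes in the marker list, the 3 with a tested probe (*csf1r*, *mrc1* and *lgmn*) rose at Day 5. Of 12 erythroid genes, the 8 with a tested probe fell, among them *hba1* (a mean change of -3.03). The tested genes of T and NK cells (5 of 11), neutrophils (3 of 8) and thrombocytes (2 of 6) had negative mean changes. Among these 10, 1 fell, *cxcr1*. The neutrophil gene *mmp13* (mean -0.19) had tested probes in both directions (0.87 and -1.24). Of 11 B cell genes, 2 were tested: *cd79a* fell (-2.67) and *cd22* rose (2.49). The *cd22* probe was above the limit set by the negative control spots in no Day 1 sample. Nor was the *mmp13* probe with -1.24 above it in any Day 5 sample, so the size of these 2 changes is uncertain. The part of these cell types in the levels of the phagocytosis genes was not tested.

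The genes of the process went both ways. Of the 42 genes with a probe, 24 were higher and 18 lower at Day 5 by the mean of their probes. Among the named genes of the list, 54.5% were higher. The mean change exceeded 2-fold for 17 of the 24 and 12 of the 18. The study had listed the genes through a 2-fold cut in the same samples, so these 2 counts follow in part from that choice. By role, the higher genes were 7 of 9 in recognition of dying cells, sugars and lipids and 5 of 10 in actin remodelling. They were 4 of 4 in membrane traffic and 3 of 4 in kinase signalling. Of the Fc and paired receptors 2 of 4 were higher, and of the cytokines, receptors and transcription factors 2 of 5. The lower genes included all 4 immunoglobulin light chains. The median change was 0.38 over the 42 genes, against 0.60 over all 1414 named genes of the probe list with a value. Without the light chains, all of them lower, it was 0.91. That value is not set against the 0.60, since the named genes keep their light chains.

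All 95 probes could be tested, and 84 of them were measured on all 8 arrays. At an adjusted p under 0.05 over all tested probes, 43 of the 95 passed the threshold, beside 784 of 38695 on the whole array (2.03%). Among the named probes of the study's list, from which the 95 come, 668 of 1979 passed (33.8%). Of the 43, 10 were higher (1.09% on the whole array) and 33 lower (0.936%). These counts follow from the choice of the genes and are given as a description. They also rest on the processing: 3 of the 95 probes passed with slide as a fixed block in place of the fish, and 0 in limma with the background subtracted or not corrected, where 84 had an unadjusted p under 0.05 in each case. The 2 days did not overlap for 76 of the 95 probes, beside 11.3% of all tested probes, and 90 of the 95 had the same sign in every fish measured on both days. Of the 42 genes, 16 had a probe past the threshold, 9 of them higher and 7 lower, beside 32.6% of the named genes of the list.

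**Figure D1:**
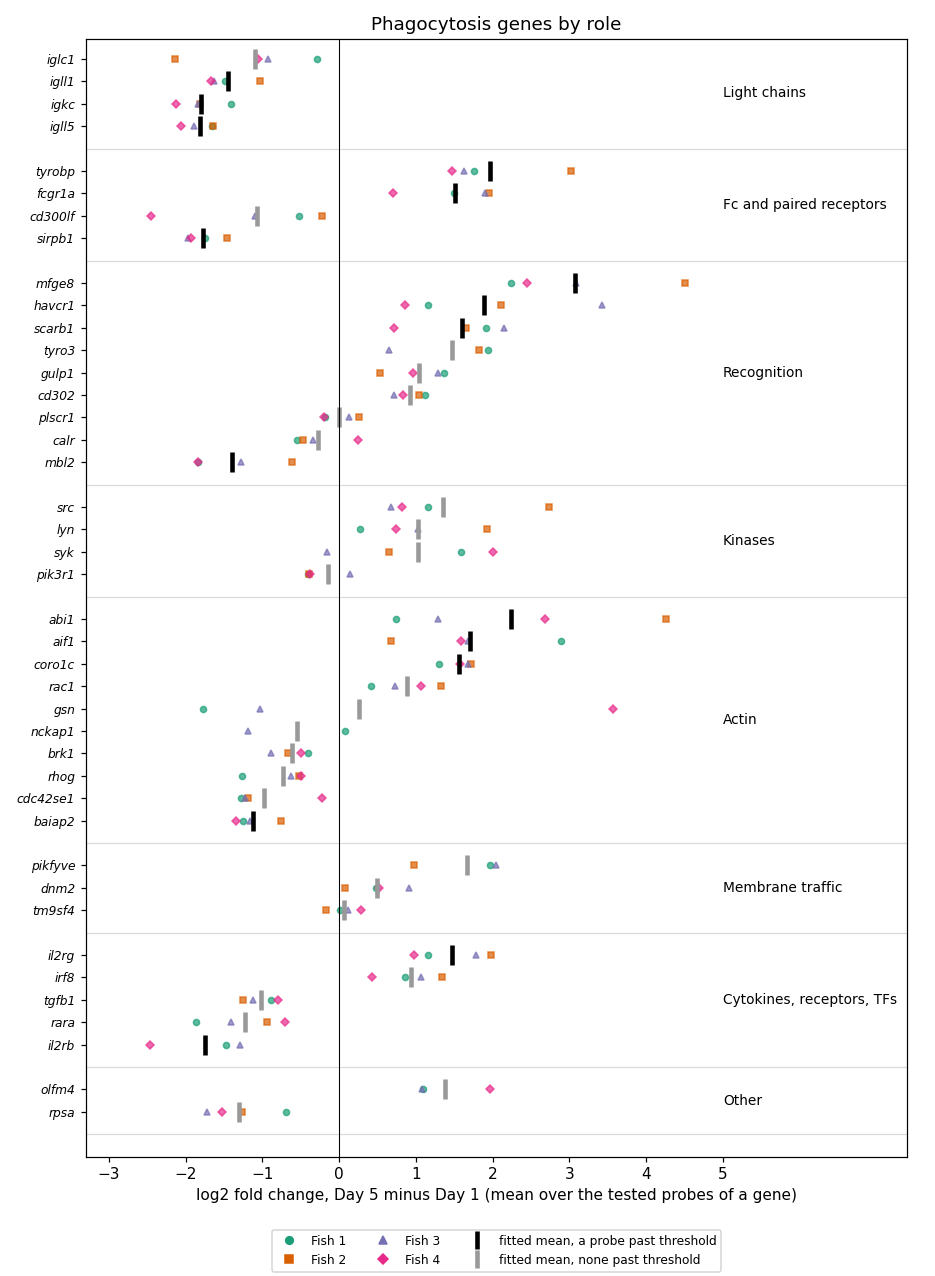
Change of 41 of the 42 genes (log2, Day 5 minus Day 1, mean over the tested probes of a gene), by role; points are the differences within Fish 1 to Fish 4 and bars the fitted means, black where the gene had a probe past the threshold. All 4 light chains lie left of 0, the 3 genes drawn for membrane traffic right of it, and the 10 actin genes on both sides.

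Immunoglobulin light chains form antibodies and B cell receptors together with heavy chains, and antibody on a particle is what Fc receptors bind. All 34 light chain probes were lower at Day 5, and 22 of them passed the threshold. The changes lay between -2.40 and -1.10, a 5.28-fold to 2.14-fold lower level. The mean change was -1.81 for *igll5*, -1.80 for *igkc*, -1.45 for *igll1* and -1.10 for *iglc1*, whose only probe did not pass.

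The brightest probe of *igll5* (C199R139) had log2 ratios of -2.10, -2.06, -1.69 and -1.92 in Fish 1 to Fish 4 at Day 5, against -0.06, 0.16, 1.17 and 0.57 at Day 1. The values of Day 5 lay close together and well below those of Day 1, and the probe fell by 2.40 (SE 0.31), the lowest change of any probe of the 42 genes. For *igll1* (C166R162), the ratios were -1.50, -1.49, -1.38 and -1.73 at Day 5, against 0.75, 0.40, 0.50 and 0.72 at Day 1. Here, too, the days were apart in every fish, and the probe fell by 2.11 (SE 0.30). For *igkc* (C194R075), they were -0.76, -1.30, -1.24 and -1.38 at Day 5, against 0.35, 0.41, 0.09 and 0.53 at Day 1.

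Fish 1 was the least low of the Day 5 samples for *igkc*, and the probe fell by 1.52 (SE 0.31). With 1 fish left out, it no longer passed without Fish 2 (-1.45), Fish 3 (-1.58) or Fish 4 (-1.39), whereas the probes of *igll1* and *igll5* passed in each case. Of the other probes, the 15 of *igkc* lay between -2.21 and -1.10, the 11 of *igll1* between -1.78 and -1.16, and the 4 of *igll5* between -2.07 and -1.26. One *igkc* probe (C114R126) was not above the limit set by the negative control spots in any Day 5 sample and was at least 2.02-fold lower. Light chains are a large family of similar genes, and the names, taken from sequence matches, do not show which locus a probe measured.

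**Figure D2:**
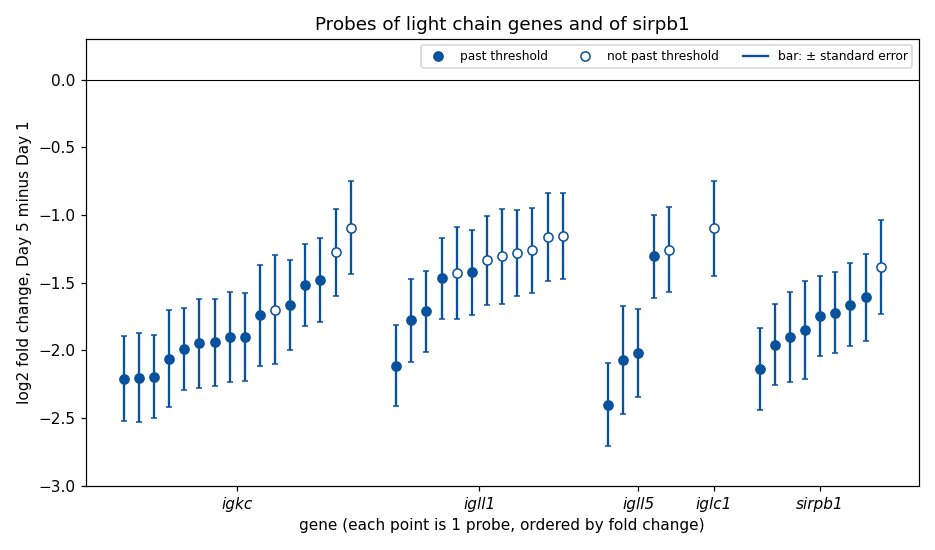
Change (log2, Day 5 minus Day 1) of each probe of the 4 light chain genes and of *sirpb1*, with bars of ± 1 SE; filled points passed the threshold. Every probe lies below 0, between -2.40 and -1.10 for the light chains and between -2.14 and -1.38 for *sirpb1*.

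The Fc and paired receptors were divided, with *tyrobp* and *fcgr1a* higher and *sirpb1* and *cd300lf* lower. TYROBP, also called DAP12, is an adaptor that carries an activation motif and serves receptors with no signalling tail of their own, among them SIRPB1 in mammals. The log2 ratio of *tyrobp* (C149R089) was 0.53, 1.78, 0.54 and 0.50 at Day 5, against -1.22, -1.24, -1.08 and -0.97 at Day 1. All Day 5 values were above all Day 1 values, Fish 2 stood above the 3 other fish at Day 5, and the gene rose by 1.97 (SE 0.34), or 3.91-fold, and passed with any 1 fish left out.

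FCGR1A is the high affinity receptor for the Fc part of IgG in mammals. Its brightest probe (C064R111) had ratios of -0.29, 0.38, 1.11 and -0.41 at Day 5, against -1.62, -1.23, -0.87 and -0.77 at Day 1. There was no overlap between the days, but Fish 4 moved by only 0.36 between its days, and the change of 1.32 (SE 0.34) did not pass the threshold. The second probe (C101R131) rose by 1.70 (SE 0.32); in the study's annotation its nucleotide match is an Fc gamma receptor I, and its protein match is an otolin.

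SIRPB1 belongs to the signal-regulatory proteins of myeloid cells. All 9 probes with this name were lower at Day 5, between -2.14 and -1.38, 8 of them passed, and the days did not overlap for any of the 9. The brightest (C127R115) had ratios of -1.86, -1.15, -1.07 and -1.52 at Day 5, against 0.95, -0.45, 0.89 and 0.41 at Day 1. Fish 2 was low on Day 1 compared with the other fish, and the probe fell by 1.85 (SE 0.36). It did not pass without Fish 1 (-1.53), Fish 3 (-1.81) or Fish 4 (-1.82). Thus *sirpb1* was lower in the same cultures in which *tyrobp* was higher. CD300LF, a receptor with inhibitory motifs in mammals, was not above the negative controls in any Day 5 sample. Its change did not pass, and its level was at least 1.78-fold lower at Day 5 by the means, a bound that leaves out the spread between fish.

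Among the 9 genes that recognise dying cells, sugars and lipids, 7 were higher at Day 5 and 2 lower, with a median change of 1.04. Both *plscr1*, counted as higher (mean 0.002), and *calr*, counted as lower (-0.28), had probes in both directions. With *plscr1* turned, 6 were higher and 3 lower with the background subtracted or not corrected and with median centring in place of loess. So it was with slide as a random block and without Fish 2 or Fish 3. The mean level of the 9 genes was between -0.14 and 0.39 at Day 5 and between -0.94 and -0.61 at Day 1. It was higher at Day 5 in 4 of 4 fish. The Day 1 mean of Fish 4 (-0.61) is without *tyro3*, which had no value in that sample. Of the surface and bridging proteins, *mfge8*, *havcr1* and *scarb1* rose, and the lectin *mbl2* fell.

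MFGE8 binds phosphatidylserine on dying cells and bridges them to integrins of the phagocyte. Its log2 ratio (C157R128) was 0.49, 1.16, 0.95 and 0.27 at Day 5, against -1.75, -3.35, -2.13 and -2.18 at Day 1. The lowest Day 5 value stood far above the highest Day 1 value, and Fish 2 was both the highest at Day 5 and the lowest at Day 1. The rise of 3.07 (SE 0.39), or 8.42-fold, was the largest of the 42 genes, and the probe passed with any 1 fish left out. The study's annotation lists no sequence match beside the symbol of this probe.

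HAVCR1, or TIM-1, is a receptor for phosphatidylserine. Its ratios (C235R119) were -0.67, 0.92, 1.32 and 0.06 at Day 5, against -1.83, -1.19, -2.11 and -0.80 at Day 1. It rose by 1.89 (SE 0.41), with the largest difference in Fish 3 (3.43) and the smallest in Fish 4 (0.87), and it did not pass without Fish 2 (1.82) or Fish 3 (1.38). SCARB1, a class B scavenger receptor, binds lipoproteins and anionic phospholipids.

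For *scarb1*, both probes rose, by 1.75 (SE 0.38) and 1.46 (SE 0.32). The brighter one (C089R130) had ratios of -0.50, 0.98, 1.15 and -0.62 at Day 5, against -2.18, -0.95, -1.75 and -1.11 at Day 1. All Day 5 values were above those of Day 1, Fish 1 and Fish 4 were the low samples of Day 5, and the probe did not pass without Fish 1 (1.77), Fish 2 (1.69) or Fish 3 (1.37).

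The other higher genes of recognition did not pass the threshold. The mean change was 1.47 for *tyro3*, a receptor tyrosine kinase bound by bridging proteins and measured on both days in 3 fish, and 1.04 for *gulp1*, an adaptor of engulfment. That of *cd302*, a C-type lectin, was 0.93, and its difference was positive in 4 of 4 fish. MBL2 is a secreted lectin that binds sugars on microbes. Neither of its probes was above the negative controls in any Day 5 sample. The bound was 1.78-fold lower for the one that fell (C220R158) and 1.70-fold lower for the other (C106R165), which did not pass. At Day 1, 3 samples of C220R158 and 2 of C106R165 were above the negative-control limit, so the Day 1 side of these bounds is also partly dim.

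**Figure D3:**
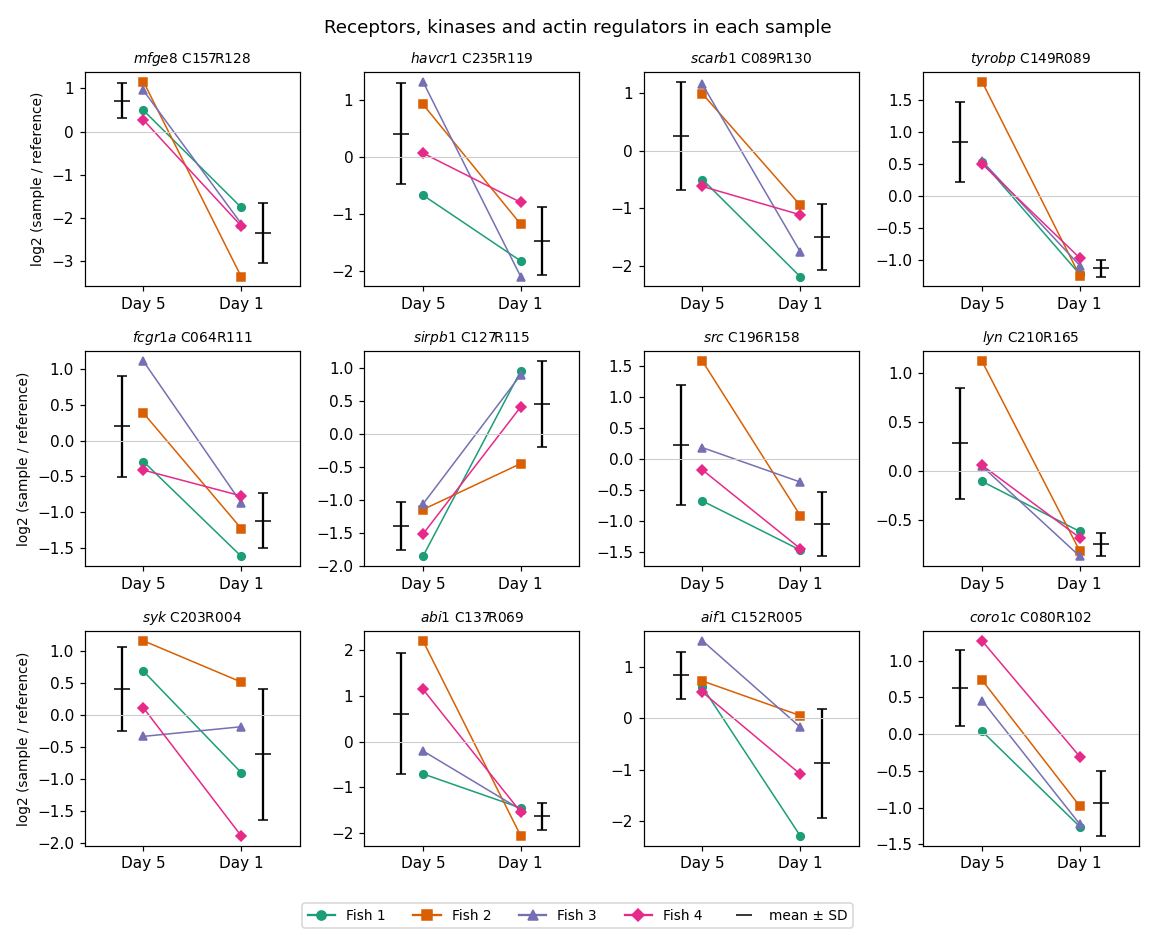
Log2 ratio of sample to common reference for 12 of the genes, Day 5 left of Day 1, with 1 line per fish and the mean ± SD of each day beside the points. Of the 12 probes, *sirpb1* (C127R115) is the one lower at Day 5; *src* and *syk* are the ones whose days overlap.

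The kinases *src*, *lyn* and *syk* had positive mean changes of 1.35, 1.03 and 1.02, and none of the 7 probes of kinase signalling passed. Src and Lyn phosphorylate the activation motifs of Fc receptors and TYROBP, and Syk binds to the phosphorylated motifs. The brighter probe of *src* (C196R158) had ratios of -0.68, 1.57, 0.18 and -0.18 at Day 5, against -1.47, -0.92, -0.38 and -1.45 at Day 1. Fish 2 was the highest at Day 5, Fish 1 at Day 5 lay below Fish 3 at Day 1, and the change was 1.27 (SE 0.36), against 0.74 with slide as a random block beside the fish and 0.80 as a fixed block in their place.

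For *lyn* (C210R165), the ratios were -0.10, 1.12, 0.05 and 0.06 at Day 5, against -0.62, -0.82, -0.87 and -0.68 at Day 1. Both days were apart, the change was 1.03 (SE 0.33), and Fish 2 again stood above the other fish at Day 5. For *syk* (C203R004), they were 0.69, 1.17, -0.33 and 0.12 at Day 5, against -0.90, 0.52, -0.18 and -1.89 at Day 1. The days overlapped and Fish 3 was slightly lower at Day 5, with a change of 1.02 (SE 0.38), against 1.90 on the authors' processed ratios. Over the kinase genes, the mean level was 0.97 in Fish 2 at Day 5 and between -0.12 and -0.04 in the 3 other fish, against -0.90 to -0.41 at Day 1.

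In the fit reported, the 10 actin genes were split evenly, with 5 higher and 5 lower and a median of -0.15. With median centring in place of loess, 4 were higher and 6 lower. So it was with slide as a random or fixed block, no block for fish, or no filter on dim spots. The same split was found on the authors' processed ratios and without Fish 4. The median ran from -1.08 on the authors' processed ratios to 1.04 without Fish 1, where 9 genes were left. The actin genes that rose were *abi1*, *aif1* and *coro1c*, and the one that fell was *baiap2*. Of the WAVE complex, which activates actin branching, the subunit *abi1* rose, and *brk1* had a change of -0.61 (SE 0.30) that did not pass. The change of *nckap1*, -0.55 (SE 0.49), did not pass either, and its direction was not shared: the difference was 0.08 in Fish 1 and -1.18 in Fish 3. Its 2 missing samples were those of Fish 2 and Fish 4 at Day 1, spots with a bright Cy5 signal (47508 and 47404).

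The ratios of *abi1* (C137R069) were -0.70, 2.20, -0.20 and 1.14 at Day 5, against -1.45, -2.06, -1.49 and -1.54 at Day 1. The spread was wide at Day 5 and narrow at Day 1, and the rise of 2.24 (SE 0.49) ran from a difference of 0.75 in Fish 1 to 4.26 in Fish 2. It did not pass without Fish 2 (1.57) or Fish 4 (2.10), nor with slide as a random block beside the fish (1.14) or as a fixed block in their place (1.18). AIF1, also called Iba1, is a calcium-binding protein that bundles actin and a widely used marker of macrophages and microglia.

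For *aif1* (C152R005), the ratios were 0.61, 0.73, 1.51 and 0.51 at Day 5, against -2.29, 0.05, -0.17 and -1.08 at Day 1. The Day 1 values were far more spread than those of Day 5, 2 of the 4 Day 1 samples were above the negative-control limit, and the gene rose by 1.71 (SE 0.37). For *coro1c* (C080R102), a coronin that binds actin filaments, the ratios were 0.04, 0.74, 0.46 and 1.27 at Day 5, against -1.26, -0.98, -1.22 and -0.31 at Day 1. It rose by 1.57 (SE 0.30), with similar differences of 1.30 to 1.72 in the 4 fish, and 2 of its 4 Day 1 samples, too, were above that limit. Without 1 fish, *aif1* did not pass when Fish 1 (1.32), Fish 3 (1.72) or Fish 4 (1.75) was left out, and *coro1c* when Fish 2 (1.52), Fish 3 (1.53) or Fish 4 (1.57) was.

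Of the small GTPases, *rac1* had a change of 0.88 (SE 0.31) and *rhog* a mean change of -0.73, each with 1 sign in all 4 fish, and neither passed. The 3 probes of *baiap2*, which links Rac and Cdc42 to actin, were all lower, and 1 of them fell by 1.50 (SE 0.34). The change of *cdc42se1*, a small effector of Cdc42, was -0.98 (SE 0.32) and did not pass. Gelsolin (*gsn*), which severs actin filaments, had no common direction: its difference was -1.77 in Fish 1 and -1.03 in Fish 3 but 3.57 in Fish 4, whose Day 1 value (-2.67) stood far below those of the other fish (0.49 to 0.75).

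All 4 genes of membrane traffic and the phagosome had positive changes, and none passed the threshold. PIKfyve is a lipid kinase of maturing phagosomes. Its ratios (C142R056) were 0.55, 0.91 and 1.04 in Fish 1 to Fish 3 at Day 5, against -1.41, -0.07 and -1.01 at Day 1, and both Fish 4 samples were missing. No values overlapped in these 3 fish, and the change was 1.66 (SE 0.38).

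Dynamin 2 (*dnm2*), a GTPase that cuts membranes, had ratios (C031R150) of -0.16, -0.19, 0.16 and 0.21 at Day 5, against -0.64, -0.27, -0.74 and -0.30 at Day 1. The change was 0.49 (SE 0.30), against 1.56 on the authors' processed ratios, and 1 sample of each day was above the negative-control limit. The probe of *tm9sf4*, a membrane protein whose relatives in Dictyostelium serve adhesion and uptake, was above it in no Day 1 sample. At Day 5, 1 sample was above the limit. The change of *tm9sf4* was 0.06 (SE 0.30), the days overlapped, and Fish 2 was lower at Day 5. Its bound from single channels, 1.10-fold higher at Day 5, exceeded the fitted 1.04-fold, so no minimum rise is drawn from it. The sign of the change turned without Fish 4 and with slide as a fixed block in place of the fish.

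The cytokines, receptors and transcription factors included the beta chain and the common gamma chain of the interleukin-2 receptor, which moved apart. IL2RG is the common gamma chain shared by several interleukin receptors, and IL2RB is found mainly on T and NK cells in mammals. For *il2rg* (C246R149), the ratios were 0.48, 0.85, 0.75 and -0.25 at Day 5, against -0.69, -1.13, -1.04 and -1.23 at Day 1. For *il2rb* (C175R091), they were -0.91, -0.66 and -1.78 in Fish 1, Fish 3 and Fish 4 at Day 5, against 0.56, 0.63 and 0.69 in the same fish at Day 1, with -0.58 in Fish 2 at Day 1 and no value for Fish 2 at Day 5.

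The days did not overlap for either gene; *il2rg* rose by 1.48 (SE 0.31) and *il2rb*, with 1 Day 5 sample above the negative-control limit, fell by 1.74 (SE 0.38). Neither passed without Fish 3 (1.37 and -1.97) or Fish 4 (1.64 and -1.38), nor did *il2rg* without Fish 2 (1.31) or *il2rb* without Fish 1 (-1.88) or with slide as a fixed block in place of the fish (-1.11). T and NK cell markers had a mean level of -1.45 to -0.34 at Day 5 and of -0.20 to 1.14 at Day 1, and their part in the change of *il2rb* was not tested.

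For *rara* (C208R124), a receptor for retinoic acid, the ratios were -1.00, -1.07, -0.71 and -0.79 at Day 5, against 0.86, -0.13, 0.70 and -0.08 at Day 1. Every Day 5 value was below every Day 1 value, but the change of -1.23 (SE 0.32) did not pass. Neither did those of the cytokine *tgfb1* (-1.02, SE 0.30, negative in 4 of 4 fish) and of *irf8*, a transcription factor of monocytes and macrophages, whose 3 probes lay between 0.57 and 1.16. No probe carried the symbol *f2rl1*, a receptor cleaved by proteases. A probe named PAR2 (C114R027), another name of this receptor, was not above the negative controls at Day 5 and was at least 3.22-fold lower, and it passed the threshold; it is not counted among the 95.

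Of the remaining genes, *olfm4* encodes a secreted olfactomedin of mammalian neutrophils and *rpsa* a ribosomal protein that is also known as a laminin receptor. The ratios of *olfm4* (C254R087) were 0.11, -0.09, 0.92 and 0.74 at Day 5, against -0.98, -0.16 and -1.23 in Fish 1, Fish 3 and Fish 4 at Day 1, with 2 samples of Day 5 and 1 of Day 1 above the negative-control limit. Those of *rpsa* (C008R061) were -0.67, -1.09, -1.18 and -1.10 at Day 5, against 0.03, 0.17, 0.54 and 0.43 at Day 1. There was no overlap between days for either gene, and the changes of 1.38 (SE 0.37) and -1.30 (SE 0.31) did not pass; without Fish 1, *rpsa* did (-1.50).

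Probes lay on both sides of 0 for 3 of the 16 genes with more than 1 probe. Of the probes of calreticulin (*calr*), a chaperone of the endoplasmic reticulum that marks dying cells for uptake when it is on their surface, the brightest (C138R135) had ratios of -0.19, -0.35, -1.10 and -0.85 at Day 5, against 1.00, 0.45, 0.15 and 0.40 at Day 1. A second probe (C220R150) ran the other way, with 0.08, 0.47, 0.03 and 0.80 at Day 5, against -0.04, -0.49, -1.19 and -1.36 at Day 1. Of the 4 Day 1 samples of C220R150, 2 were above the negative-control limit. The days did not overlap for either probe, and the changes were -1.12 (SE 0.30) and 1.12 (SE 0.36), with -0.83 (SE 0.33) for the third (C093R144). None of the 3 passed.

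The phospholipid scramblase *plscr1*, which moves phospholipids between the leaflets of a membrane, had ratios of 0.14, 0.41, 0.47 and -0.15 at Day 5 (C019R079), against -0.33, -0.36, -0.70 and -0.62 at Day 1. Its other probe (C191R119) had ratios of -0.07, -0.21, 0.11 and -0.80 at Day 5, against 0.77, 0.04, 1.03 and 0.06 at Day 1. C191R119 was above the negative-control limit in 2 samples of Day 5 and 3 of Day 1. The changes were 0.72 (SE 0.30) and -0.71 (SE 0.30), each with 1 sign in all 4 fish, and neither passed. The first was 0.41 with median centring and 1.10 on the authors' processed ratios. In the study's annotation, the protein match of the first probe is scramblase 1 and its nucleotide match resembles scramblase 2.

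For *pik3r1*, a regulatory subunit of the PI3 kinases, the brighter probe (C260R117) had ratios of -0.21, 0.74, 0.45 and 0.08 at Day 5, against -0.36, -0.62 and -0.30 in Fish 1, Fish 3 and Fish 4 at Day 1. Its change was 0.53 (SE 0.37), against 2.29 on the authors' processed ratios, 0.86 with no filter on dim spots, 0.35 with median centring and 0.26 without Fish 3. The other probe (C228R059) was above the negative controls in no Day 5 sample and in 3 of Day 1, with a bound of 1.41-fold lower. Of C260R117, 3 samples of Day 5 and 1 of Day 1 were above that limit, and neither probe passed. Atlantic salmon carry many duplicated genes, and which copy each probe measured was not tested.

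**Figure D4:**
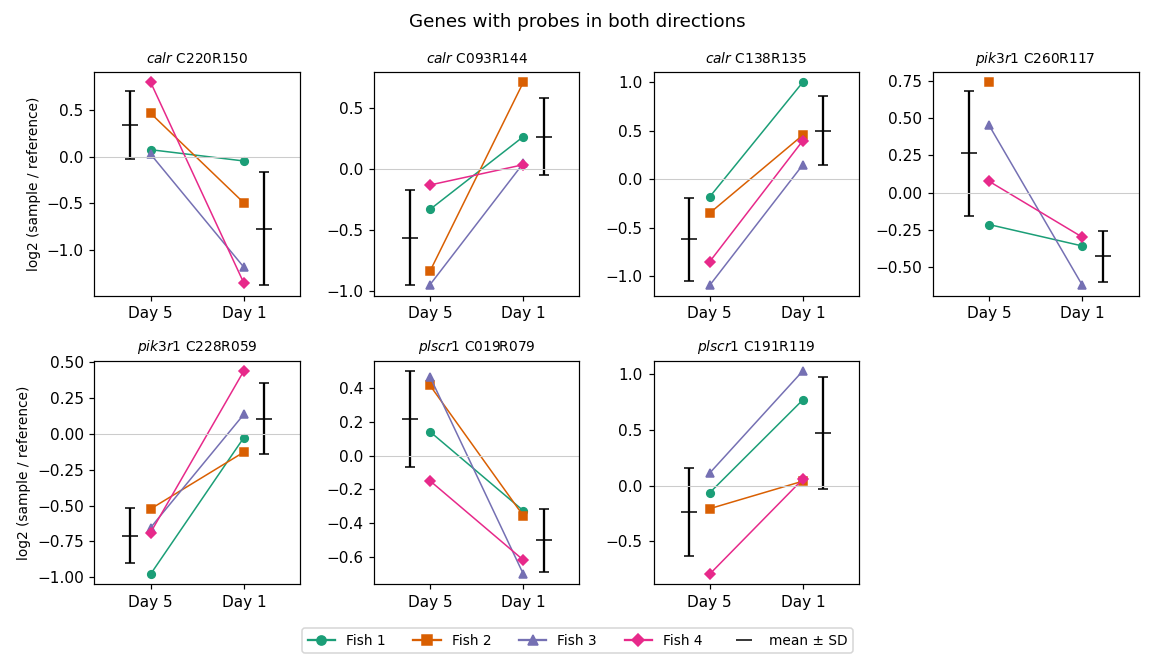
Log2 ratio of sample to common reference for the 7 probes of *calr*, *pik3r1* and *plscr1*, Day 5 left of Day 1, with 1 line per fish and the mean ± SD of each day. Within each gene 1 probe is higher at Day 5 and the others lower, and fish with no line lack a value on 1 day.

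Over all roles, the sign of a gene's difference matched that of its fitted mean for 39 of 42 genes in Fish 1, 37 of 38 in Fish 2, 39 of 42 in Fish 3 and 37 of 39 in Fish 4. The 2 days shared a slide in Fish 1 and Fish 3 and lay on different slides in Fish 2 and Fish 4. All 43 probes past the threshold had the sign of the fit in Fish 1 and in Fish 4, and so did all 42 with a value in Fish 2 and in Fish 3. The fit rests on these same differences, and the 43 were picked by it. These counts of shared signs are thus a description and no independent check, also of the slides. Without Fish 3 or Fish 4, 15 or 13 of the phagocytosis probes passed in place of 43, and none of the 43 changed sign.

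By role, mean levels were apart between the days for the light chains (-1.46 to -0.71 at Day 5, 0.27 to 0.65 at Day 1), for recognition, for the kinases and for membrane traffic (-0.12 to 0.47 at Day 5, -0.89 to -0.38 at Day 1). They overlapped for the Fc and paired receptors (-0.68 to 0.15 at Day 5, -0.68 to -0.13 at Day 1), for actin (-0.46 to 0.06 at Day 5, -0.75 to -0.19 at Day 1) and for the cytokines, receptors and transcription factors (-0.76 to 0.06 at Day 5, -0.29 to 0.11 at Day 1). Each mean was taken over the genes with a value in the sample. Besides *tyro3*, it left out *gsn* and *il2rb* in Fish 2 at Day 5 and *nckap1* in Fish 2 and Fish 4 at Day 1. For *pikfyve*, both days of Fish 4 were left out. Among the cell type markers, averaged over the tested probes of a list, the macrophage list was at 0.15 to 0.85 at Day 5 and -1.45 to -0.94 at Day 1. The B cell list was at -1.22 to -0.58 at Day 5 and -1.26 to -0.08 at Day 1. It is the mean of only 2 tested genes that moved in opposite directions, *cd79a* (-2.67) and *cd22* (2.49). The *cd22* probe was above the negative-control limit in no Day 1 sample. The part of macrophages or B cells in the levels of the roles was not tested.

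**Figure D5:**
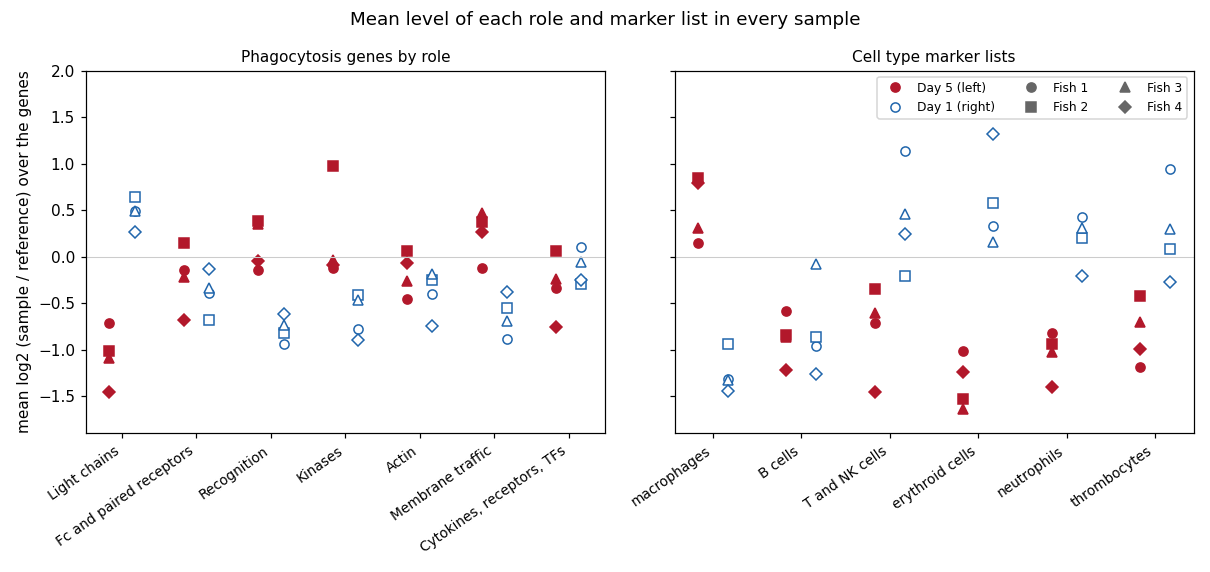
Mean log2 ratio of sample to common reference in every sample, over the genes of each role (left panel) and over the tested probes of each cell type marker list (right panel). Genes or probes without a value in a sample are left out of its mean. Day 5 (filled) is left of Day 1 (open), with 1 symbol shape per fish. The light chains are low at Day 5 in all 4 fish and the macrophage markers high, whereas the actin genes overlap between the days. The B cell list is the mean of 2 tested genes that moved in opposite directions.

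Of 97 further genes known to act in phagocytosis, 6 had a name in the probe list, since names were taken only from that list of differing probes, and 5 of the 6 could be tested. The vacuolar proton pump subunit *atp6v0d1*, which acidifies phagosomes and lysosomes, rose by 3.17 with its 1 probe, and both probes of *pik3r3*, another regulatory subunit of the PI3 kinases, rose, with a mean of 1.49. The actin-bundling *lcp1* (mean 1.03), the catalytic subunit *pik3cg* (-1.11) and the ubiquitin ligase *cbl* (-1.22) did not pass. The sixth, the complement subunit *c1qb*, was the 1 gene named in the list among the 23 fixed for recognition, and it was measured on both days in 1 fish only and not tested. The other 91 genes were not analysed here.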

How the data were processed

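Gene expression was measured in 8 samples of adherent HKLs, 4 at Day 5 and 4 at Day 1, grouped by the day and fish number in the labels. The authors scanned 2-colour arrays and deposited the signal and background intensity values of every spot, with quality flags (another kind of value, a code per spot), as read by ImaGene and not yet normalized. A further table deposited by the authors holds their processed log2 ratios (18108 probes, loess-normalized, gaps imputed), used here as an alternative. The scanner balance was set per array, so raw intensities are not compared between arrays.

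In R 4.3.3 with limma 3.58.1, intensities were corrected by normexp (offset 50) and loess-normalized within arrays. A spot was treated as missing if flagged or if, in either channel, its signal failed to exceed local background by 2 SD, and a probe was dropped once more than 2 of its 8 spots were missing. Of 43689 probes, 38695 were tested with lmFit and eBayes. Fish was the block, and p-values were adjusted by Benjamini-Hochberg over all tested probes (threshold 0.05). The pairing comes from the labels, which give both samples of a number to 1 fish, as in the paired design of the study. Over all tested probes, the deviations of a fish's 2 samples from the day means correlated at -0.06, -0.08, 0.06 and 0.03 in Fish 1 to Fish 4. Over the phagocytosis probes, they correlated at 0.47, 0.11, 0.37 and -0.14. The procedure was tested on simulated data, where the share of false calls was above the threshold in most draws, so calls close to the threshold are less certain than it states. Precision is limited by the number of arrays, with at most 4 differences behind a change.

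The negative-control limit of an array was the mean plus 2 SD of 153 negative spots (Cy5). Where no measured sample of a day exceeded it, a probe of the phagocytosis genes has only a bound ("at least"). For the marker genes, no bound was computed. The bound was computed on single channels after loess and Aquantile, is open to dye bias since no dyes were swapped, and leaves out the spread between fish. The mean of the other day was taken as measured, also where some of its samples did not exceed the limit. No probe's level was set against another's.

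Gene names came from the study's probe list (2139 probes read); its fold changes and q-values were not used. The phagocytosis genes, roles, marker lists and alternatives were chosen with earlier results of these data known. Values in every sample are given for the 3 genes with the largest mean change of each role and for genes with probes in both directions, shown by their brightest probe. Of these, 1 gene is counted with the others but is not reported by itself here. Alternatives covered background correction, normalization, filters, flags, blocks, the authors' values and each fish left out.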

Additional observations from a re-analysis of the deposited data

Results flagged for a closer look

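In 6 of 74 groups of 4 samples tested (the brightest probe of each gene, each day), 1 sample stood apart from the other 3 by Dixon's criterion, which chance exceeds in about 5% of groups. Fish 2 was that sample in 4 of the 6. At Day 5, its log2 ratio was 1.78 for *tyrobp* (C149R089), with the other fish between 0.50 and 0.54, and 1.12 for *lyn* (C210R165), with the others between -0.10 and 0.06. At Day 1, Fish 2 was at -2.06 for *abi1* (C137R069, others -1.54 to -1.45) and at -0.58 for *il2rb* (C175R091, others 0.56 to 0.69). For *gsn* (C203R087), the Day 1 sample of Fish 4 was at -2.67 (others 0.49 to 0.75). For *rpsa* (C008R061), the Day 5 sample of Fish 1 was at -0.67 (others -1.18 to -1.09).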

How the results depend on the processing

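Under the 15 alternatives, 20 to 24 of the phagocytosis genes measured were higher at Day 5, against 24 in the fit reported. The number of probes past the threshold varied far more, from 0 to 2676 on the whole array and from 0 to 67 of the phagocytosis probes. With the background subtracted or not corrected, limma called 0 probes, 0 of them phagocytosis probes; at an unadjusted p under 0.05 there were 4217 and 4393 on the array and 84 and 84 of the phagocytosis probes. With flagged spots kept, 479 probes and 27 phagocytosis probes passed. With slide as a random block beside the replicate block (correlation 0.92), 2676 and 67 passed, and with slide as a fixed block in place of the fish, 80 and 3. Without the replicate block, 918 and 47 passed, and the number of phagocytosis genes higher at Day 5 was 23. With single fish left out, calls ran from 342 without Fish 4 to 750 without Fish 1, and calls of phagocytosis probes from 13 to 36 in the same order (15 without Fish 3); 22 or 23 of these genes were higher. Median centring in place of loess changed the split of calls to 338 higher and 567 lower, against 422 and 362. Under every alternative tried, none of the 43 phagocytosis probes past the threshold changed sign, and neither did the brightest probe of any gene shown by sample. In 364 comparisons of these brightest probes with an alternative, 259 stayed on their side of the threshold, 82 lost it and 23 gained it. Only 13 of these 25 probes were past the threshold in the fit reported, so all 82 losses fell on comparisons of those 13. The 259 include comparisons of probes that passed in neither fit. The mean changes over all probes of a gene that switched sign were those of *gsn* (-1.55 on the authors' processed ratios), *plscr1* (-0.19 with median centring), *pik3r1* (0.43 on the processed ratios) and *tm9sf4* (-0.07 with slide as a fixed block). Each of these genes switched under more than 1 alternative, of which 1 is given. The cause of these shifts was not tested. Signal limits the dim probes: 40.4% to 45.7% of the probes at Day 5 and 41.6% to 51.3% at Day 1 were above the negative-control limit in Cy5.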
